A study of Homo sapiens with 6 samples.

Results

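The regions described here are the stretches of human chromosome 19, a gene-dense chromosome, that remain once 5 intervals of zinc-finger gene clusters are set aside. They were chosen by position in the human build hg19: every 20 kb bin of chromosome 19 present in both compartment tracks was taken, leaving out 5 intervals (11.6 to 12.8, 20 to 24.2, 36.9 to 38.3, 44.3 to 45.0 and 52.3 to 54.0 Mb). This left 2331 bins, or 46.62 Mb, of the 2790 bins shared on chromosome 19 and the 140474 shared in all. Domains of chromosome 19 with a midpoint outside the intervals were added, which gave 150 of the 4289 domains listed for HCT116 and 89 of the 1823 listed for DKO1. The rule used positions and no measured value, but it was set with earlier results of these data known. The retained bins fall into 6 segments, numbered along the chromosome from the short-arm end.

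The data are Hi-C, an assay that cross-links chromatin and joins DNA ends lying close together, so that the sequenced junctions report which parts of the genome touch. The cells were HCT116, an established human colorectal cancer line labelled as wild type, and DKO1, a single line derived from HCT116. In DKO1 the DNA methyltransferase genes DNMT1 and DNMT3B are disrupted, and what remains of either enzyme was not measured here. No other allele or treatment is labelled. Both lines were grown in the same serum-supplemented medium and share the HCT116 background. The cell line field of the DKO1 libraries reads HCT116, and their titles name DKO1. There were 3 libraries for each line, but the labels of the 3 name the same files, so each line had 1 pooled compartment track and 1 pooled domain list. The spread between replicates is therefore unknown. Nothing could be tested between the lines, and every comparison below is a description of a pair of pooled maps. The number of read pairs behind each map is not given in the files used here, so the depth is unknown. With 1 derived line, the disruption of the methyltransferase genes and other properties of DKO1 cannot be told apart.

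DNMT1 copies the methylation of CpG dinucleotides onto newly replicated DNA, and DNMT3B adds methyl groups to sites that lack them. At a larger scale chromosomes separate into compartment A, which is open, gene-rich and replicated early, and compartment B, which is compact and gene-poor. The first principal component of the contact map, PC1, sorts bins between the compartments. On a finer scale, topologically associating domains are stretches that contact themselves more than their neighbours, and their edges are often held by the protein CTCF and by active promoters. Chromosome 19 is known as the most gene-dense human chromosome. Its KRAB zinc-finger genes lie in clusters with a heterochromatin of their own.

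The label of a gene-dense chromosome was checked against the RefSeq annotation of GRCh38.p14, used only for names, order and counts because the deposited files are in hg19. It lists 1451 protein-coding genes on chromosome 19, or 26.0 per Mb of shared bins, against 3.61 on chromosome 18 and 8.99 on chromosome 20. That was the highest density of the 22 autosomes. It holds for the whole chromosome, and the density of the retained stretches alone was not computed. Of the 1451 genes 262 (18.1%) carry a zinc-finger symbol beginning with ZNF, ZFP or ZSCAN. The left-out intervals do not hold all of them, since 46 of the last 60 protein-coding genes at the long-arm end have such a symbol, against 0 of the first 60. The last retained segment, from 54.0 Mb to the end, therefore goes against the label, and values are given without it where they differ.

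The retained bins lay mostly in compartment A in both lines, and most kept their compartment in DKO1. A deposited PC1 above 0 was called A and one below 0 was called B. The scores are in units of the SD of a chromosome, because each chromosome was centred on 0 and scaled to an SD of 1 before deposit. In HCT116 1624 of 2331 bins (69.7%) were A, and in DKO1 1528 (65.6%) were. The A share of HCT116 was the highest of the 22 autosomes when chromosome 19 was represented by its retained bins. That rank rests on the selection, because scores were centred on the whole chromosome and the bins left out were almost wholly B. Over all of chromosome 19 the HCT116 share was 58.5%, which was below that of chromosome 15 (63.0%), among others. HCT116 and DKO1 had A shares of 57.5% and 46.0% on chromosome 18, 56.9% and 47.4% on chromosome 20, and 53.7% and 49.2% over all autosomes. The left-out zinc-finger intervals were almost wholly B, with an A share of 1.53% in HCT116 and 1.74% in DKO1. Without the last segment the A shares of the retained bins were 73.9% and 69.4%.

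Bins whose sign differed between the lines were called switched. Of the retained bins 124 (5.32%) went from A in HCT116 to B in DKO1, where the figure over all autosomes was 8.92%. In the other direction 28 bins (1.20%) went from B to A, against 4.4% over all autosomes. Both shares were below the autosomal background. Counted from the lowest of the 22 autosomes, they ranked 6 and 4. Chromosome 20 had a lower B to A share, at 0.469%, and an A to B share of 9.98%. The 152 switched bins together made up 6.52% of the retained bins. On chromosome 18 the switched share was 15.8%, on chromosome 20 it was 10.4%, over all autosomes 13.3%, and in the left-out zinc-finger intervals 0.218%. Only chromosome 17, at 5.57%, had a lower share among the 22 autosomes.

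The balance between the directions depends on where 0 is placed. A to B bins were 81.6% of the switched bins on the deposited scale. When the median of each chromosome was subtracted in each line, 72 bins went from A to B and 70 from B to A, so that A to B bins made up 50.7%. That centring sets the A share of a whole chromosome to the same value in both lines, and by its construction it evens out the directions. The total was less affected: 6.09% of the retained bins were switched after it, against 12.2% on chromosome 18, 7.83% on chromosome 20 and 12.3% over all autosomes.

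The difference in PC1 between the lines was also small. The correlation of PC1 between the lines over the 2331 bins was r = 0.95 (Spearman rho = 0.94), compared with r = 0.90 on chromosome 18, 0.92 on chromosome 20 and 0.87 over all autosomes. Chromosome 17 was higher, at 0.96, and chromosome 22, also gene-dense, was at 0.95. Neighbouring bins share reads and are not independent, so these coefficients are given without a p-value. The median absolute difference between the lines was 0.155 SD in the retained bins, the lowest of the 22 autosomes. It was 0.308 SD on chromosome 18, 0.276 SD on chromosome 20 and 0.297 SD over all autosomes. A difference of at least 0.5 SD was found in 179 retained bins (7.68%), where the share over all autosomes was 28.5%. In 135 of these 179 bins PC1 was lower in DKO1, and in 44 it was higher. The median PC1 of all retained bins was 0.63 for HCT116 and 0.56 for DKO1, and the median difference was 0.02.

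**Figure D1:**
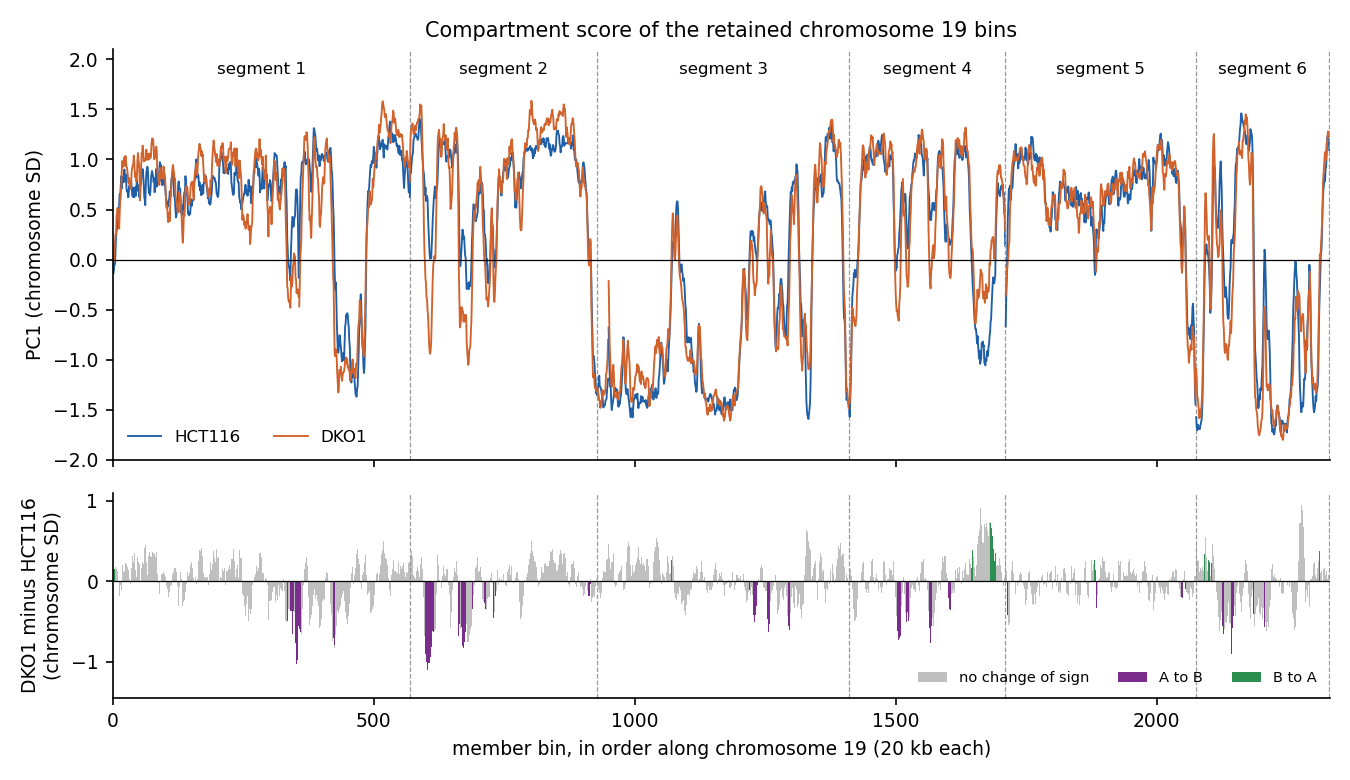
The upper panel plots PC1, in units of the chromosome's SD, of the 2331 retained 20 kb bins in their order along chromosome 19 for HCT116 and DKO1, with dashed lines between the 6 segments. The lower panel plots DKO1 minus HCT116 for each bin, with the 124 A to B bins and the 28 B to A bins in colour. The tracks follow each other over most of the length, and the coloured bins form short clusters beside or within A stretches.

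A bin near 0 can change sign with a small difference, so the switched share was also read by the level of PC1 in HCT116. Bins within 0.5 SD of 0 were 19.8% of the retained bins, 26.1% of chromosome 18, 23.3% of chromosome 20 and 29.3% of all autosomal bins. Among the 289 retained bins between 0 and 0.5 in HCT116, 108 (37.4%) were B in DKO1. The corresponding shares were 67.9% on chromosome 18, 59.1% on chromosome 20 and 45.2% over all autosomes. Among the 876 retained bins between 0.5 and 1, 16 (1.83%) were B in DKO1, against 9.50% over all autosomes. No retained bin above 1 or below -1 was switched. Just below 0 the order was different: between -0.5 and 0, 26 of 172 retained bins (15.1%) were A in DKO1, against 14.2% on chromosome 18, 4.24% on chromosome 20 and 19.9% over all autosomes.

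The same comparison was made in steps of 0.1 SD. If each retained bin had been switched as often as bins of its PC1 class on the other autosomes, 11.9% would have been switched, and with the shares of chromosomes 18 and 20 the figures would be 13.9% and 12%. The observed share was 6.52%. The mean absolute difference in PC1 at that composition would be 0.377 SD, and 0.206 SD was observed.

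**Figure D2:**
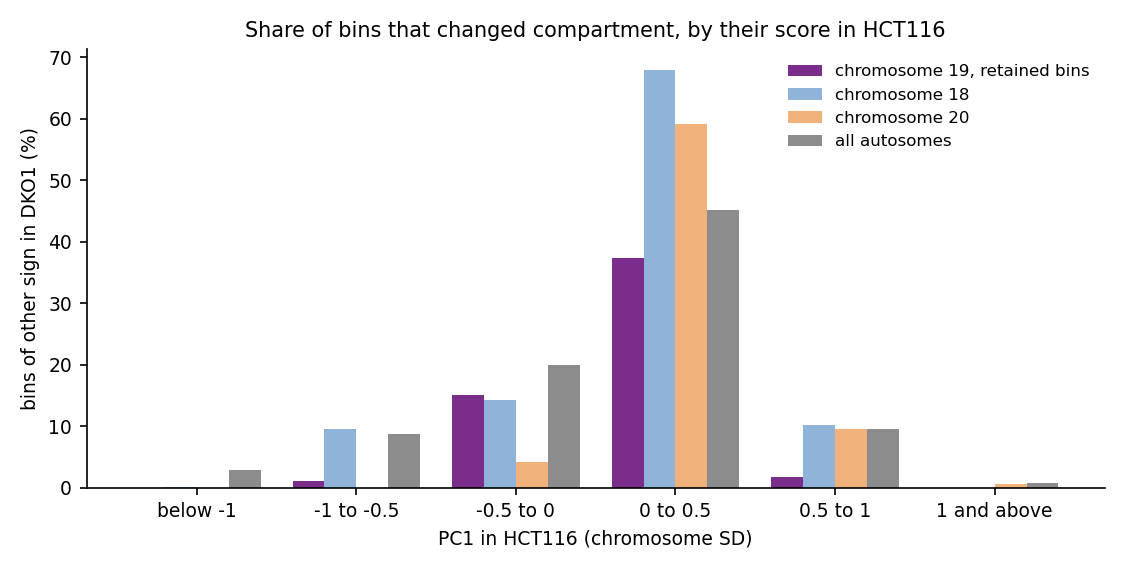
Bars show the percentage of 20 kb bins whose PC1 had the other sign in DKO1, by class of PC1 in HCT116 (in units of the chromosome's SD), for the retained bins of chromosome 19, chromosome 18, chromosome 20 and all autosomes. Between 0 and 0.5 the retained bins reach 37.4% and the autosomes 45.2%, and between 0.5 and 1 the values are 1.83% and 9.50%.

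The 6 segments differed widely in compartment, and also in how they compared between the lines. Bins that differed by at least 0.5 SD between the lines made up 0.82% of segment 5 and 15.6% of segment 6. Segments 1, 2 and 5 were the most open. Segment 1 (chr19:220001-11600000, 568 bins) had an A share of 87.3% in HCT116 and 84.7% in DKO1, with 4.05% of bins switched. Segment 2 (chr19:12800001-20000000, 360 bins) went from 90.6% to 78.1%, and its 45 switched bins (12.5%) all ran from A to B. Segment 5 (chr19:45000001-52300000, 365 bins) had 93.2% and 91.8%, with 3.01% switched, the lowest share of the 6. The largest drop in A share was that of segment 2.

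Segments 3 and 6 were mainly B. Segment 3 (chr19:24200001-36900000, 482 bins) spans the centromere and lacks 153 bins. It was 28.6% A in HCT116 and 25.1% A in DKO1, with 4.36% of bins switched. Segment 6 (chr19:54000001-59120000, 256 bins) was 35.5% and 34.0% A, with 6.25% switched. Segment 4 (chr19:38300001-44300000, 300 bins) stood between them at 77.7% and 74.3%. Its 36 switched bins (12%) included 13 from B to A, nearly as many as in the other 5 segments together, which held 15.

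The correlation of PC1 between the lines ran from r = 0.89 in segment 4 to r = 0.97 in segment 3. The median difference, DKO1 minus HCT116, was between -0.03 in segment 6 and 0.05 in segment 1. Subtracting the chromosome's median moved all 6 upward, to between 0.10 and 0.17, so the negative signs of segments 5 and 6 hold only on the deposited scale. Within segments the upper end of the scale moved most in segment 1, where 17.1% of bins were above 1 in HCT116 and 28.0% in DKO1. In segment 5 that share went the other way, from 16.2% to 12.1%.

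Long stretches kept their compartment. The 30 stretches that were A in both lines covered 30.0 Mb, and the 5 longest held 61.0% of it. The longest was chr19:300001-6880000 (6580 kb), whose mean PC1 was 0.74 for HCT116 and 0.80 for DKO1. The next were chr19:16120001-19640000 (0.99 and 1.09), chr19:45100001-48400000 (0.73 and 0.70), chr19:48500001-51740000 (0.78 and 0.79) and chr19:9940001-11600000 (1.03 and 1.12). None of these 5 means differed by as much as 0.1 SD between the lines.

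The 29 stretches that were B in both lines covered 13.58 Mb. The longest were chr19:30400001-33080000 (2680 kb, mean PC1 -1.06 for HCT116 and -1.10 for DKO1) and chr19:27680001-30100000 (-1.26 and -1.09), both on the long-arm side of the centromere. They were followed by chr19:56660001-58740000 (-1.15 and -1.14), chr19:8720001-9920000 (-0.86 and -0.98) and chr19:43060001-43720000 (-0.85 and -0.31). The last of these stayed B with a mean 0.53 SD higher in DKO1.

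The 5 highest and the 5 lowest bins of each line kept their sign in the other line, but they were not the same bins. Above 1 lay 19.7% of the retained bins in HCT116 and 22.9% in DKO1. The 5 highest bins of HCT116 had PC1 from 1.38 to 1.46, and in DKO1 the same bins had 1.01 to 1.46. The 5 lowest lay between 56920001 and 57500000, from -1.75 to -1.72, and had -1.69 to -1.5 in DKO1. Chosen in DKO1 instead, the 5 highest bins had 1.55 to 1.59 there and 1.09 to 1.22 in HCT116, and the 5 lowest had -1.80 to -1.75 and -1.70 to -1.36.

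Switched bins were gathered in short runs. The 124 A to B bins formed 36 runs, and the 28 B to A bins formed 12. Counted by windows of 1 Mb, 26 of 52 windows held no switched bin, and 12 windows with at least 5 held 117 of the 152. Of the A to B bins 59.7% lay in runs of 100 kb or more, compared with 75.2% over all autosomes, and the longest run was 360 kb, compared with 1260 kb. Of the B to A bins 35.7% lay in such runs, compared with 61.6%, and the longest was 200 kb, compared with 880 kb. Most runs lay at a compartment border of HCT116, next to a bin already in the compartment that the run took in DKO1. These were 28 of 36 A to B runs and 10 of 12 B to A runs. Counted by bins, border runs held 80 of the 124 A to B bins and 26 of the 28 B to A bins. The share of border runs over all autosomes was not computed.

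Most switched bins were close to 0 in both lines. The A to B bins had median scores of 0.20 for HCT116 and -0.25 for DKO1, and 108 of 124 were under 0.5 in HCT116. Most A to B bins of all autosomes were so too, 9214 of 11869. The B to A bins had medians of -0.16 and 0.13. A single bin was at least 0.5 from 0 in both lines with opposite signs.

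The runs with the largest differences were at 13380001 and 7200001, both farther from 0 in HCT116 than most. The longest run spanned chr19:13380001-13740000 (360 kb, 18 bins) inside a large A interval of segment 2. Its mean PC1 was 0.37 in HCT116, where single bins lay between 0.01 and 0.72, and -0.48 in DKO1, where they lay between -0.94 and -0.02. The bins within 100 kb on its sides averaged 0.79 in HCT116 and 0.42 in DKO1. HCT116 had a dip that just reached 0 there, and in DKO1 the dip was deeper and wider. The 10 retained bins with the largest differences, from -1.11 to -0.95, were 8 bins of this run and 2 of the run at 7200001. This run also held 5 of the 6 bins that differed by at least 1 SD.

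The domain there was the same in both lists. It ran from 13360001 to 13680000 in HCT116 and in DKO1, with identical ends. The mean PC1 of this domain was 0.37 for HCT116 and -0.52 for DKO1, the largest difference of any of the 150 HCT116 domains. The HCT116 domain that followed, 13680001 to 13880000, overlapped no DKO1 domain. After subtraction of the chromosome's median 8 of the 18 bins were still switched, and the mean difference was -0.73 instead of -0.85.

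**Figure D3:**
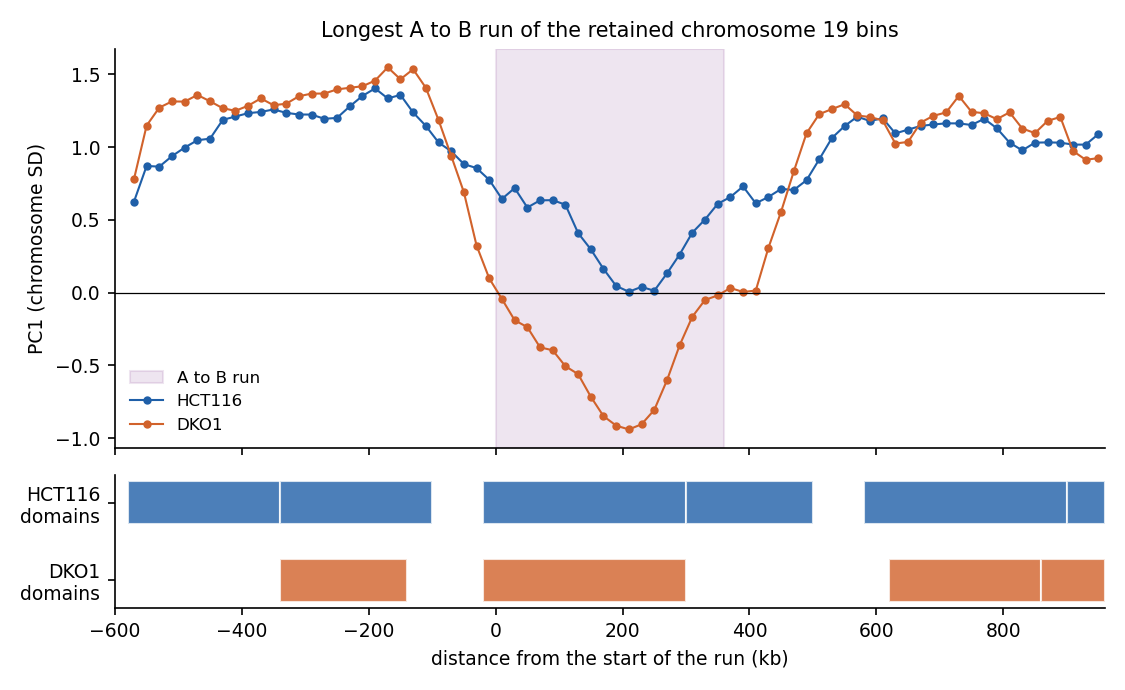
The upper panel plots PC1, in units of the chromosome's SD, of 20 kb bins in HCT116 and DKO1 by distance in kb from the start of the 360 kb A to B run, which is shaded. The lower panel draws the domains of each list over the same stretch, cut at the edges of the plot. The mean of the shaded bins is 0.37 in HCT116 and -0.48 in DKO1, and the domain that covers most of them has the same ends in both lists.

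Of the other A to B runs of at least 100 kb, 1 further lay in segment 2, at chr19:14760001-14960000 (200 kb). There PC1 was barely above 0 in HCT116, at 0.16, and -0.55 in DKO1. On the deposited scale it joined B bins on both sides, and with the chromosome's median subtracted 0 of its 10 bins were switched. Segment 1 had runs at chr19:7020001-7140000 (0.29 in HCT116 and -0.18 in DKO1) and chr19:7200001-7320000 (0.58 and -0.27). The second of these had the highest mean PC1 in HCT116 of the 10 runs of this length. A shorter run in segment 1, chr19:8660001-8720000, was among the 5 with the largest difference, with 0.37 in HCT116 and -0.36 in DKO1.

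Segment 4 held 4 such runs within about 2 Mb. At chr19:40140001-40280000 the means were 0.19 in HCT116 and -0.47 in DKO1. At chr19:40500001-40600000 they were 0.22 and -0.21, at chr19:41380001-41480000 they were 0.44 and -0.16, and at chr19:42120001-42220000 they were 0.17 and -0.13. The last 3 lay within A, with no B neighbour in HCT116, and the HCT116 A interval that holds all 4 (40140001 to 43000000) had 22 of 143 bins switched. Segment 3 had 1 run, chr19:33220001-33360000 (0.15 and -0.26), and segment 6 had 1, chr19:55340001-55440000 (0.19 and -0.44).

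In the B to A direction 3 runs reached 60 kb. The longest was chr19:43720001-43920000 (200 kb), whose mean was -0.33 for HCT116 and 0.14 for DKO1. The others were chr19:43000001-43060000 (-0.17 and 0.10) and chr19:48400001-48460000 (-0.11 and 0.16). The first pair are the opposite ends of 1 B interval of HCT116 in segment 4, chr19:43000001-43920000, which was singled out after its values were seen. Its mean was -0.69 in HCT116 and -0.19 in DKO1. All 46 of its bins were higher in DKO1, and 13 of them were switched, so the interval was shallower in DKO1. It was also narrower on the deposited scale, but with the chromosome's median subtracted 0 of the 10 bins of the run at 43720001 were switched. The largest difference the other way among B intervals of at least 400 kb was at chr19:56220001-56620000 in segment 6, also chosen after its values were seen. There the mean was -1.04 in HCT116 and -1.43 in DKO1, and all 20 bins were lower.

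DKO1 divided the retained bins into more compartment intervals than HCT116. There were 54 uninterrupted A or B intervals in HCT116 and 67 in DKO1, with a median length of 350 kb and 320 kb. After a running mean over 5 bins the counts were 40 and 55. Chromosome 18 went from 75 to 113 intervals and chromosome 20 from 80 to 76, and over all autosomes the counts were 4031 and 5007. Most compartment borders had a counterpart: 29 of the 46 HCT116 borders (63.0%) had a DKO1 border within 40 kb. The share was 33.3% on chromosome 18, 35.1% on chromosome 20 and 33.4% over all autosomes. The mean absolute step of PC1 from one bin to the next was 0.071 SD in HCT116 and 0.082 SD in DKO1, a ratio of 1.15, compared with 1.19 over all autosomes.

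The retained stretches were rich in domains, and DKO1 had fewer than HCT116. The 150 HCT116 domains came to 32.2 per 10 Mb of shared bins, and the 89 DKO1 domains to 19.1. These were the highest densities of the 22 autosomes in both lines; over all autosomes the values were 15.4 and 6.56. The DKO1 count was 59.3% of the HCT116 count, which was again the highest of the 22 autosomes. It was 34.6% on chromosome 18 and 46.5% on chromosome 20. On chromosomes 22 and 17, which are also gene-dense, it was 56.4% and 53.5%. Domains had a median length of 240 kb in both lines, with an interquartile range of 200 to 320 kb. Because the depth of the maps is unknown, the part of depth in these counts was not tested.

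Fewer DKO1 domains meant that less of the sequence was in a domain. HCT116 domains covered 41.92 Mb and DKO1 domains 27.32 Mb. Both totals include a domain that spans the centromere, 24360001 to 27960000 in HCT116 and 24440001 to 28240000 in DKO1, over which only 27 and 37 bins had a shared PC1. Of the HCT116 domains 105 (70.0%) ended where the next began, and of the DKO1 domains 41 (46.1%) did. Over all autosomes these shares were 51.9% and 33.6%.

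Domains that DKO1 kept were mostly kept in place. A domain was called matched where one in the other list overlapped it by at least 80% of both lengths. Of the 150 HCT116 domains 74 (49.3%, Wilson 95% interval 41.4 to 57.3%) were matched in DKO1, where the share over all autosomes was 35.9%. On chromosome 18 it was 27.9% (20.2 to 37.2%), and on chromosome 20 it was 39.6% (32.0 to 47.7%). The intervals cover counting error only. The share of the retained stretches was the highest of the 22 autosomes, but those of chromosomes 17 (44.3%) and 16 (42.1%) lay inside its interval. Of the 89 DKO1 domains the same 74 (83.1%, 74.0 to 89.5%) were matched in HCT116, where the share over all autosomes was 84%, so in this direction the retained stretches were at the background. Of the 74 pairs 47 had identical ends, 61 the same start and 58 the same end.

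Of the 150 HCT116 domains 46 (30.7%, 23.8 to 38.5%) overlapped no DKO1 domain, where the share over all autosomes was 53.6%. On chromosome 18 it was 62.5% and on chromosome 20 it was 47.9%. These 46 made up 60.5% of the 76 HCT116 domains without a match, against 83.6% over all autosomes. The 15 DKO1 domains without a match overlapped an HCT116 domain in 14 cases. The exception was 50400001 to 50640000, in an A stretch where PC1 was 0.75 for HCT116 and 0.65 for DKO1. The longest of the 15 were 8640001 to 9200000 and 57160001 to 57680000, both in B. Next came 41320001 to 41680000 and 48440001 to 48800000, each of which overlapped more than 1 HCT116 domain.

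The matched share was higher in A than in B, as over all autosomes, but the intervals overlap and the order did not hold for every PC1 class. Of the 115 HCT116 domains with a positive mean PC1 53.9% (44.8 to 62.7%) were matched, and of the 35 with a negative one 34.3% (20.8 to 50.8%). Over all autosomes the shares were 44.9% and 17.0%. Below -0.5, 5 of 25 domains (20%) were matched, against 15.3% over all autosomes. Between -0.5 and 0 there were 7 of 10 (70%, 39.7 to 89.2%), above the share in each A class, which ran from 50% to 56.1%. The autosomal share in that class was 20.9%. Taken over PC1 classes of 0.5 SD, the other autosomes would give 38.1% at the composition of the 150 domains, and 49.3% was observed.

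Domains with and without a switched bin had like matched shares. Of the 29 HCT116 domains that held a switched bin 14 (48.3%, 31.4 to 65.6%) were matched, and of the 121 that held none 60 (49.6%, 40.8 to 58.4%) were. Over all autosomes the shares were 25.5% (23.1 to 28.0%) and 40.2% (38.5 to 42.0%). In the retained stretches 5 HCT116 domains had a mean PC1 that was positive in HCT116 and negative in DKO1, and 2 of the 5 were matched.

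**Figure D4:**
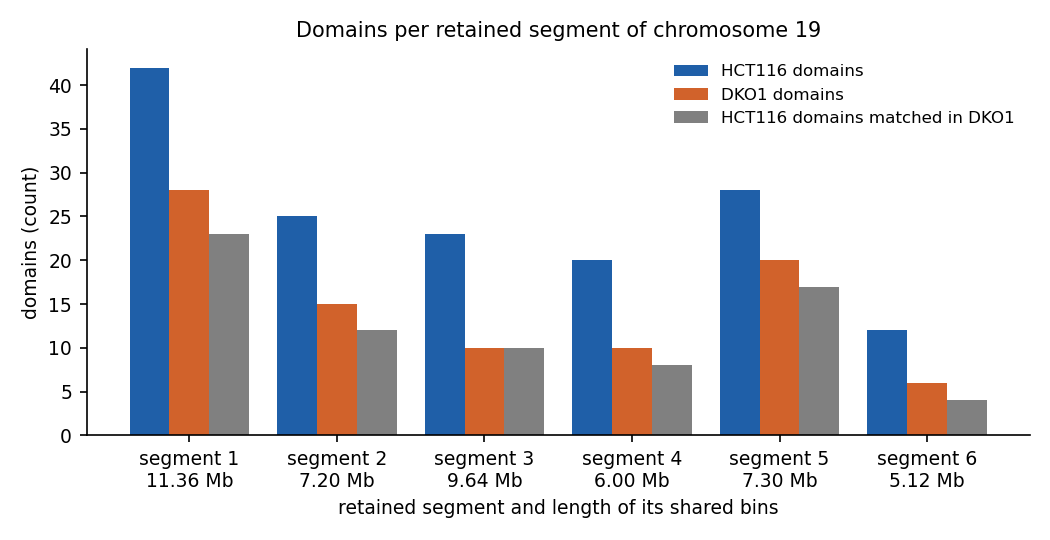
Bars show, for each of the 6 retained segments, the number of HCT116 domains, of DKO1 domains, and of HCT116 domains matched in DKO1. Segments are labelled with the length of their shared bins in Mb. HCT116 has more domains in every segment, from 12 in segment 6 to 42 in segment 1.

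HCT116 had more domains than DKO1 in each of the 6 segments. Segment 5 kept the largest part, with 28 domains in HCT116, 20 in DKO1 and 60.7% of the HCT116 domains matched. Segment 1 had 42 and 28, with 54.8% matched, and segment 2 had 25 and 15, with 48.0%. Segment 3 had 23 and 10, with 43.5%, and segment 4 had 20 and 10, with 40%. Segment 6 had 12 and 6, with 33.3%. Without segment 6 the matched share was 50.7%. The segment with the most switched bins, segment 2, stood in the middle of this order.

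Series of neighbouring HCT116 domains that were all matched lay mostly in A. In segment 1, 7 neighbouring HCT116 domains between 240001 and 2120000 (mean PC1 0.70 for HCT116 and 0.86 for DKO1) were all matched. Series of 5 lay at 33440001 to 35240000 in segment 3 and at 49520001 to 51000000 in segment 5 (0.84 and 0.86). Over the one in segment 5 DKO1 listed 6 domains. Among them was the DKO1 domain at 50400001 to 50640000, which overlapped no HCT116 domain. The series in segment 3 crossed more than 1 compartment border. An A interval of HCT116 at 34580001 to 35000000 (mean PC1 0.64 in HCT116) lay mostly between its last 2 domains. The first 2 domains of the series were A in HCT116 (0.51 and 0.49) and the last 3 were B (-0.37, -0.36 and -0.56). All 5 kept their sign in DKO1. Shorter series were 4 at 2440001 to 3520000 and 3 at 55000001 to 56200000 and at 16320001 to 17400000.

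Long domain-free stretches were few in HCT116 and more common in DKO1. HCT116 had 32 gaps between domains, of which 3 were over 400 kb, and DKO1 had 53, of which 14 were. The longest in HCT116 was 31440001 to 32440000 (1000 kb) in the B stretch of segment 3. In DKO1 the gap there ran from 30400001 to 33440000 (3040 kb), and 5 neighbouring HCT116 domains within it were unmatched. All 134 bins up to 33080000 were B in both lines, at a mean PC1 of -1.06 for HCT116 and -1.10 for DKO1. Of the last 18 bins of the gap 17 were A in HCT116 and 8 in DKO1. The other long HCT116 gaps were 57960001 to 58440000 and 58680001 to 59120000 in segment 6, 4400001 to 4800000 in segment 1 and 19640001 to 20000000 in segment 2. Beyond these, 3 gaps of 360 kb lay in segment 3, 1 of 320 kb in segment 5 and 1 of 280 kb in segment 2.

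Some DKO1 gaps lay in A. The gaps named next were chosen after their values were seen. The DKO1 gap from 6720001 to 8000000 (1280 kb, mean PC1 0.68 for HCT116 and 0.35 for DKO1) holds the runs at 7020001 and 7200001. The gap from 40240001 to 41320000 (1080 kb, 0.82 and 0.69) holds the run at 40500001. A gap from 43280001 to 44300000 (1020 kb, -0.24 and 0.18) covers most of the B interval in which PC1 was higher in DKO1. Other long DKO1 gaps held no switched run of at least 100 kb. They include 57680001 to 59120000 (1440 kb, -0.48 and -0.36) and 36200001 to 36800000 (600 kb, 0.55 and 0.76). They also include 4240001 to 4800000 (560 kb, 0.90 and 1.03) and 5600001 to 6160000 (560 kb, 0.84 and 0.94). A link between gaps and switched runs was not tested.

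Boundaries were compared singly as well. Each position where a domain starts or ends counted once as a boundary. It was called found where the other list had one within 40 kb. Of the 195 HCT116 boundaries 137 (70.3%, 63.5 to 76.2%) were found in DKO1, where the share over all autosomes was 45.2%. On chromosome 18 it was 33.7% and on chromosome 20 it was 51.8%. Of the 137 DKO1 boundaries 130 (94.9%, 89.8 to 97.5%) were found in HCT116, where the share over all autosomes was 92.5%, inside the interval. At identical positions the shares were 51.3% and 73.0%. Domains were also densest here, and the part of their density in these shares was not tested.

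Boundaries in both lists lay in A more often than those in the HCT116 list alone. Of the 137 found boundaries 120 (87.6%) had a positive PC1 in HCT116, with a median of 0.69. Of the 58 others 29 (50%) had, with a median of -0.01. Over all autosomes these shares were 82.7% and 54.7%. The 7 DKO1 boundaries without an HCT116 counterpart were at 5600000, 14480000, 24440000, 43280000, 51200000, 56760000 and 57160000, each within 160 kb of an HCT116 boundary. Compartment borders coincided with domain boundaries about equally in the lines: 20 of 46 borders in HCT116 (43.5%) and 26 of 59 in DKO1 (44.1%) had one within 40 kb. Over all autosomes the shares were 25% and 9.87%. Domains were densest in the retained stretches, and the part of their density in these border shares was not tested.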

How the data were processed

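Per the labels, formaldehyde-fixed cells gave 6 Hi-C libraries, 3 per line, by the Arima protocol. HiC-Pro, HOMER 4.6 and hg19 (GRCh37) stand in the submitters' processing notes, with no role given for either tool. How the domains were called is not given in the sources used here. The deposited PC1 score is given per 20 kb bin, scaled by chromosome before deposit. The deposited domain lists hold a chromosome, start and end on a 40 kb grid. Contact maps were not used here.

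From these files, bins were joined by chromosome and start, and signs, runs of switched bins, reciprocal overlaps (80%) and boundary distances (40 kb) were computed with Python 3.11.15, numpy 2.4.6 and pandas 2.3.3. Shares at the retained bins' composition weight the reference's share in each PC1 class. The functions for runs and overlaps were tested on simulated data. Ranks over the 22 autosomes use the retained bins for chromosome 19. Intervals are Wilson 95% intervals. The regions and lists were chosen with earlier results of these data known. Named regions are the 6 segments, switched runs of at least 100 kb (up to 10 per direction), the 5 runs of at least 60 kb per direction with the largest difference, the 5 longest stretches kept in each compartment, the 5 highest and lowest bins, the 10 longest HCT116 gaps, the 5 longest series of matched domains and the longest unmatched DKO1 domains. Others are marked as chosen after their values were seen. Alternatives covered the zero point, smoothing, the stretches included, the PC1 minimum, run length, overlap and tolerance. Regions are named by position, without genes and without sequence, because no genome or annotation in hg19 was used here.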

Additional observations from a re-analysis of the deposited data

How the results depend on the processing

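Of 70 alternative values 38 stayed within the tolerance used: the Wilson 95% interval of a share, 1.5 times for a count, 0.05 for r and 0.1 SD for a difference. All counts of domains and intervals and all correlations were among these. The A share was 59.7% in HCT116 and 59.6% in DKO1 after subtraction of the chromosome's median, 64.5% and 60.6% after subtraction of the retained bins' mean, 58.5% and 55.1% over all of chromosome 19, 80.4% and 76.1% without segment 3, and 73.9% and 69.4% without the last segment (chosen after seeing the data). The A to B and B to A shares were 3.09% and 3.00% with the median subtracted, 0.0595% and 0% with an absolute PC1 of at least 0.5 in both lines (1680 bins), and 1.20% and 0.429% in runs of at least 200 kb. The A to B share was 4.44% over all of chromosome 19. The matched shares of HCT116 and DKO1 domains were 34.0% and 57.3% at 90% overlap and 59.3% and 97.8% at 50%. The shares of boundaries found were 51.3% and 73.0% at a tolerance of 0 kb, and 76.9% and 98.5% at 120 kb, and that of DKO1 was 97.8% at 80 kb. With the median subtracted, also added later, the median differences of segments 1 to 4 were 0.17, 0.16, 0.15 and 0.17, and those of segments 5 and 6 changed sign to 0.12 and 0.10. Of the 11 runs of at least 100 kb none changed direction, 7 had no switched bin left with the median subtracted, and 8 were wholly switched after smoothing.

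No paired analysis was possible because each line has only 1 pooled track and 1 pooled list. With 1 map per line and an unknown depth, no difference can be set against replicate error. Switched shares rest on bins near 0 and on the zero point, and the part of depth in the domain counts was not tested.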

Other observations

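The intervals left out as zinc-finger clusters were almost wholly B in both lines. Their median PC1 in HCT116 ran from -1.57 at 36.9 to 38.3 Mb to -0.97 at 44.3 to 45.0 Mb, and in DKO1 the same intervals had -1.40 and -0.57.

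In the RefSeq promoters of chromosome 19 (GRCh38.p14, 300 bases around each start), genes with a zinc-finger symbol had a median of 20 CpG dinucleotides and the other genes 21. At least 10 CpG dinucleotides were present in 91.3% of the 286 zinc-finger promoters and in 73.3% of the 1262 others. These are properties of the reference, with no methylation value of either line.

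A block of segment 6 that changed without switching was chosen after its values were seen. At chr19:57960001-58140000 (180 kb) mean scores of -1.39 for HCT116 and -0.58 for DKO1 were found, and no bin changed sign.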
